A study of Mus musculus with 24 samples.

Results

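Mouse chromosome 8 was profiled for histone H2AX and its phosphorylated form gH2AX in 100 kb bins, outside one stretch of the chromosome whose input level differed between KO and WT females. All chromosome 8 rows of a table of raw read counts per 100 kb bin were taken, except the 17 bins from position 47500001 to 49200000. The bins were thus taken by position, and the stretch was left out for a difference seen in earlier results of these data. This gave 1278 of the 27268 bins in the table. Of these, 1246 held enough reads to be tested and the other 32 were empty in the libraries.

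The cells were primary mouse embryonic fibroblasts (MEFs), fibroblast cultures explanted from embryos, of strain C57BL6. They were either WT or SIRT7-KO (lacking the deacetylase Sirt7), and female or male. Every group, WT cells included, was irradiated with X-rays (5 Gy) and left to recover for 30 min, so that no unirradiated level was measured here. For each of the 4 combinations of sex and genotype, chromatin was sequenced after immunoprecipitation with an antibody to gH2AX, with an antibody to H2AX, or without immunoprecipitation (input), in 2 libraries each, which makes 24 libraries in 12 groups. The labels name no embryo, litter or culture, and leave it unsaid whether both libraries of a group are separate cultures. The p-values therefore measure only the spread between these libraries, which may be technical. Embryonic age, the number of embryos behind each culture and the design of the deleted allele are not given in the sources used here. The assay reads DNA and chromatin, so no marker RNA checks the labelled cell type.

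H2AX is a variant of histone H2A that is built into nucleosomes along the whole genome. After a DNA double-strand break, the kinases ATM, ATR and DNA-PK phosphorylate its tail over long stretches of chromatin around the break, and this form, gH2AX, gathers repair proteins. SIRT7 is a nuclear and nucleolar NAD-dependent deacetylase that acts on histones and is known for roles in ribosomal DNA chromatin and in DNA repair. Because the antibody to H2AX reads the histone whether or not it is phosphorylated, the gH2AX/input ratio, the H2AX/input ratio and the gH2AX/H2AX ratio were followed side by side along the chromosome. All ratios are log2 values with standard errors (SE) from a count model over all bins of chromosomes 1 to 19 and X, and a bin was called where the adjusted p-value was under 0.05. Levels are given as CPM, the reads of a bin scaled to a common autosomal total per library.

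The gene-rich bins at the top of the gH2AX profile and the bins at the bottom differed in the promoters they held, so a few promoters are shown with every CG dinucleotide in capitals. Each is the 250 bases before the annotated start, 5′ to 3′ on the gene's strand, from RefSeq on build GRCm38.p6. Gas8, a subunit of the dynein regulatory complex of cilia (chr8:123518585-123518834, + strand, 10 CG), lies in the bin with the highest gH2AX/input ratio, 0.76. Pik3r2, a regulatory subunit of phosphoinositide 3-kinase (chr8:70776713-70776962, - strand, 29 CG), and the cAMP phosphodiesterase Pde4c (chr8:70723814-70724063, + strand, 1 CG) share a bin at 0.64, and show that promoters rich and poor in CG sat in one high bin. Glra3, a glycine receptor subunit (chr8:55940168-55940417, + strand, 4 CG), and Adam29, a protease of the ADAM family expressed in testis (chr8:55906965-55907214, - strand, 1 CG), share a bin at -0.31.
Gas8: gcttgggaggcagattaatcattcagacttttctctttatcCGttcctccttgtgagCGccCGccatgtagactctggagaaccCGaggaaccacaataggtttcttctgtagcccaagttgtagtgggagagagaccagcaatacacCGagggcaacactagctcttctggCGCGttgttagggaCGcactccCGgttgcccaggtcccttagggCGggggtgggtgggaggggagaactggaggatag
Pik3r2: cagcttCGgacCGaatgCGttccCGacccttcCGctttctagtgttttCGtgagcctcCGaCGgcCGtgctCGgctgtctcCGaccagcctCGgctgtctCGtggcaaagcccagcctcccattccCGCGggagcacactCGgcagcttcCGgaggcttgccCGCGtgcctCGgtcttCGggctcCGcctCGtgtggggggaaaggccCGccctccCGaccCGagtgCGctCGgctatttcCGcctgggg
Pde4c: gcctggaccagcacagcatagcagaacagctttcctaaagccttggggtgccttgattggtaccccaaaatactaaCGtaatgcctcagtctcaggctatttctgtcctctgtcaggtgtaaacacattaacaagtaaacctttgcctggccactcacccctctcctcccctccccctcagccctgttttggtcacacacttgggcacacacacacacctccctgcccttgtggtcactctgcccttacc
Glra3: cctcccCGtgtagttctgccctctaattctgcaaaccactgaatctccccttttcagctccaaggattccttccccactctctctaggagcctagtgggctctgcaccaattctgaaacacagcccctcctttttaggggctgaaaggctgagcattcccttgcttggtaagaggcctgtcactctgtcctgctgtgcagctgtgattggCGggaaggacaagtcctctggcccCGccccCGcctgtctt
Adam29: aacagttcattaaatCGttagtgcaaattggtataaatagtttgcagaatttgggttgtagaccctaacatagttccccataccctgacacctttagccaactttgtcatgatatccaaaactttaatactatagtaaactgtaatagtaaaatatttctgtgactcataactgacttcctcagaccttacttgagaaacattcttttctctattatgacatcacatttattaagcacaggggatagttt

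Of 1033 protein-coding genes placed in the bins by their midpoint, 716 had a promoter sequence. A count of 10 or more CG was found in 387 of 567 promoters (68.3%) in bins called higher for gH2AX/input and in 14 of 100 promoters (14.0%) in bins called lower. The median was 14 against 2 CG per 250 bases. Over all chromosomes the shares were 61.9% of 12134 promoters and 16.8% of 3422, so the same split was present outside chromosome 8. The letters CG were counted on 1 strand, which is the same as on both because CG is its own complement. A count of CG is a description of the sequence and says nothing of its methylation.

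The libraries held 66.9 to 269 M reads (M, mega), of which 3.16 to 11.9 M fell in the chromosome 8 bins, and the median bin of a library held 2340 to 9362 reads. Libraries of a group differed by more than counting noise (chi-square divided by its degrees of freedom, 2.59 to 3.87), and the biological coefficient of variation was 1.85% to 2.13% per antibody. Reads on X and Y matched the labelled sex in all 24 libraries, with 0.0868% to 0.100% of reads on Y in female and 1.54% to 1.62% in male libraries. The 100 kb bin that holds Sirt7 on chromosome 11 did not check the genotype, since its input differed by 0.01 ± 0.03 in females (adjusted p = 0.987) and by -0.0016 in males (adjusted p = 0.995), and a deletion inside 1 gene is a small part of such a bin.

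Both marks followed the same landscape along chromosome 8, high over gene-dense stretches and low over gene-poor ones. The gH2AX/input ratio was called higher in 565 and lower in 533 of the 1246 tested bins. Over all bins tested in the genome, 86.6% were called in this comparison, 41.5% as higher and 45.2% as lower, so the number of calls on chromosome 8 was near the background. The median was 0.0047 (all bins -0.01), with 5th and 95th percentiles of -0.25 and 0.45. H2AX/input was called higher in 629 and lower in 506 bins, against 89.4% of all bins called (44.9% higher and 44.5% lower), with a median of 0.04. With so many reads per bin, small ratios pass the test, and the size of a ratio says more than its call. Across the 1246 bins the ratios of both marks to input went together with a Pearson correlation of 0.88. That value is over bins of the same libraries, and both ratios share the input, so it is a description without a test. Of 1015 bins called for both marks, 495 were higher for both and 433 lower for both, whereas 31 were higher for gH2AX and lower for H2AX and 56 the reverse.

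**Figure D1:**
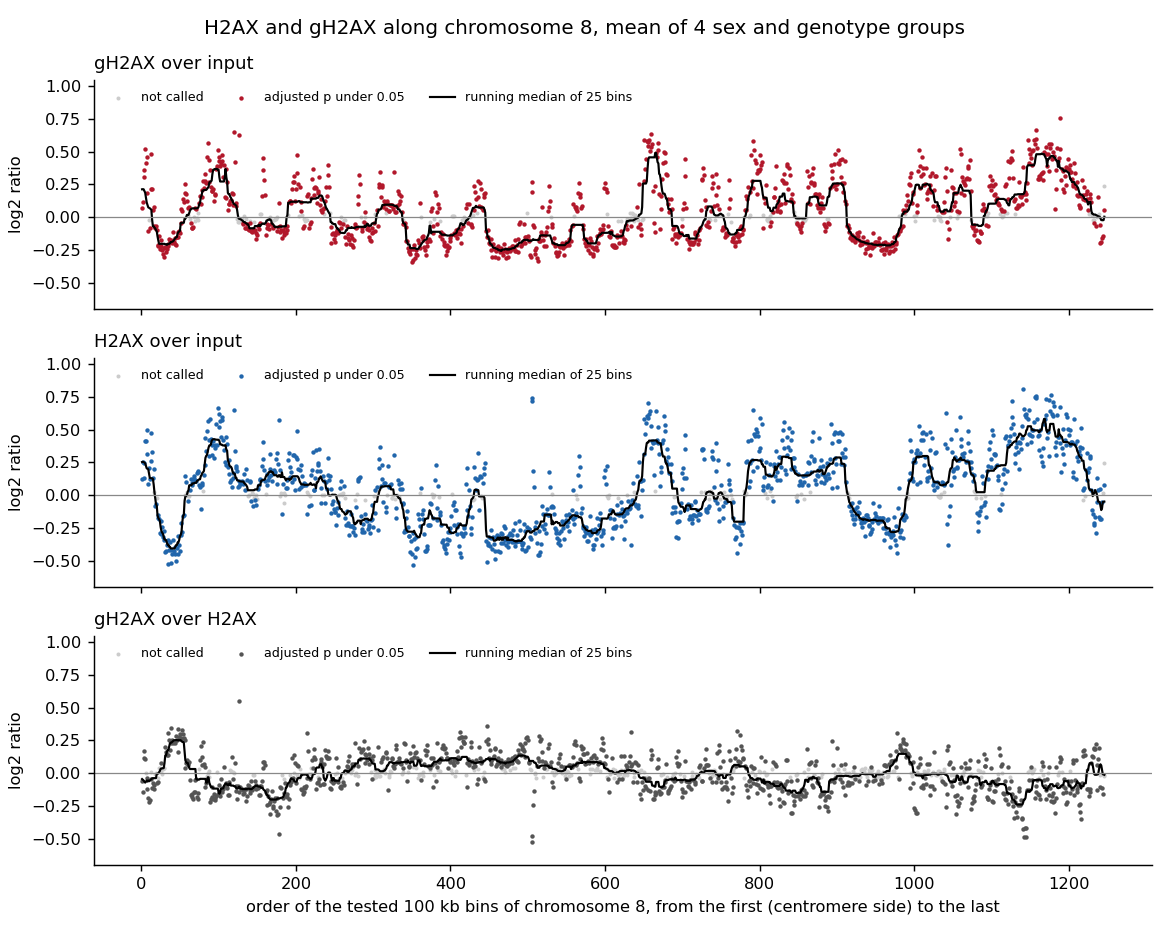
Log2 ratios of gH2AX/input, H2AX/input and gH2AX/H2AX per tested 100 kb bin (y axis), with the 1246 bins in chromosome order along the x axis called bins in colour and a running median as a line. Both marks rise together towards the distal end, where the window from 120000001 to 125000000 has medians of 0.42 for gH2AX and 0.50 for H2AX, and dip together after the left-out stretch, where the window from 50000001 to 55000000 has medians of -0.24 and -0.34.

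In 26 windows of 5 Mb, the highest medians lay in chr8:120000001-125000000, with 0.42 for gH2AX/input and 0.50 for H2AX/input. All 50 bins there were called higher for gH2AX, and the window holds 90 protein-coding genes. chr8:10000001-15000000 followed a similar pattern at a lower level, with medians of 0.22 and 0.32 and 47 bins higher for gH2AX. At the other end, the window chr8:50000001-55000000 had medians of -0.24 and -0.34, with 49 of 50 bins lower for gH2AX and 50 lower for H2AX. The window chr8:95000001-100000000 was lower in both marks to a like extent (-0.17 and -0.15). The window chr8:5000001-10000000 was lower by more in H2AX (-0.28) than in gH2AX (-0.15).

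Merging adjacent called bins gave long blocks. The longest block higher in gH2AX was chr8:117900001-127300000 (94 bins, median 0.33), in which Cdh13, the gene of a cadherin anchored by a lipid, takes the most bases, followed by Gse1 and Slc35f3. It was followed by chr8:10400001-15300000 (49 bins, median 0.23), chr8:86400001-89100000 (27 bins), chr8:105000001-107300000 (23 bins) and chr8:93800001-96000000 (22 bins). The longest block lower in gH2AX was chr8:96000001-102700000 (67 bins, median -0.20), which holds Cdh8, a cadherin of neurons, and part of Cdh11, a cadherin of mesenchyme. The bin with most of Cdh11 lies just outside it, at 0.0076 and not called. The next was chr8:49200001-54500000 (53 bins, median -0.23), with Tenm3, a teneurin adhesion protein, Vegfc, a growth factor of lymphatic endothelium, and Neil3, a DNA glycosylase. It begins at the first bin after the left-out stretch. H2AX had blocks in nearly the same places, from 116100001 to 126600000 (105 bins, median 0.44) and from 11000001 to 16500000 (55 bins, median 0.30) on the high side. On the low side they ran from 96400001 to 102700000 (63 bins, median -0.19) and from 49200001 to 55100000 (59 bins, median -0.34).

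The bin with the highest gH2AX/input ratio on chromosome 8 was chr8:123500001-123600000, ranked 15th of 25703 bins in the genome. It holds Gas8, Dbndd1 and Afg3l1, and 36 of the 48 genes annotated as 5S ribosomal RNA on the chromosome, with 12 more in the next bin. These copies have a median length of 121 bases and a median spacing of 1695 bases in this bin, and reads from near-identical copies cannot be assigned to one of them. The gH2AX levels were 85.8 and 81.8 CPM in female SIRT7-KO, 90.2 and 84.4 in female WT, 93.1 and 90.2 in male SIRT7-KO, and 79.5 and 76.1 in male WT libraries. H2AX ran from 78.6 to 82.5 CPM and input from 47.98 to 53.5 CPM. Every gH2AX and every H2AX library lay above every input library. The highest gH2AX level was in a male KO library, and the other male KO library was level with 1 female WT library at this rounding. The ratio to input was 0.76 ± 0.02 for gH2AX (edgeR quasi-likelihood test, adjusted p = 2.845e-118) and 0.68 for H2AX. The next bin, with the other 12 copies, was at 0.52 for gH2AX, and the bin before, with none, at 0.46. 5S RNA is the small RNA of the large ribosomal subunit, transcribed by RNA polymerase III outside the nucleolar repeats.

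Other bins at the top were rich in protein-coding genes. chr8:120500001-120600000 holds Gins2, a subunit of the GINS complex of the replicative helicase, and the end of Gse1, and was at 0.66 for gH2AX and 0.76 for H2AX. chr8:14900001-15000000, with Arhgef10 and Cln8, was at 0.65 for both. chr8:70700001-70800000, with Pde4c, Mast3 and Iqcn, was at 0.64 and 0.53. For H2AX alone the highest bins also included chr8:122400001-122500000 (Piezo1, a mechanosensitive channel, with Zc3h18 and Rnf166, 0.77) and chr8:120300001-120400000 (Gse1, 0.75).

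At the bottom, chr8:37900001-38000000, inside the sarcoglycan gene Sgcz, had the lowest gH2AX/input ratio, -0.34 ± 0.02. Its gH2AX levels were 26.1 to 30.2 CPM over the 8 libraries and its input levels 35.4 to 37.9 CPM, without overlap. A bin of Glra3, chr8:56000001-56100000, was also at -0.34. H2AX was lowest in another Sgcz bin, chr8:38100001-38200000, at -0.53. All 10 bins of Sgcz were between -0.34 and -0.21 for gH2AX (median -0.27). The 11 bins of Galntl6, a glycosyltransferase-like gene, had a median of -0.22, the 3 bins of Spock3, a brain proteoglycan, -0.28, and the 3 of Cdh8 -0.23. Most of the long genes examined had medians below 0, but not all. Wwox, an oxidoreductase gene over a common fragile site, had a median of 0.24 over 8 bins, and Cdh13 0.17 over 11. Dlgap2 was at 0.10 and Myo16 at 0.07. Inpp4b was at -0.19, Nrg1 at -0.10, Csmd1 at -0.07, Unc5d at -0.03 and Psd3 at -0.02.

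**Figure D2:**
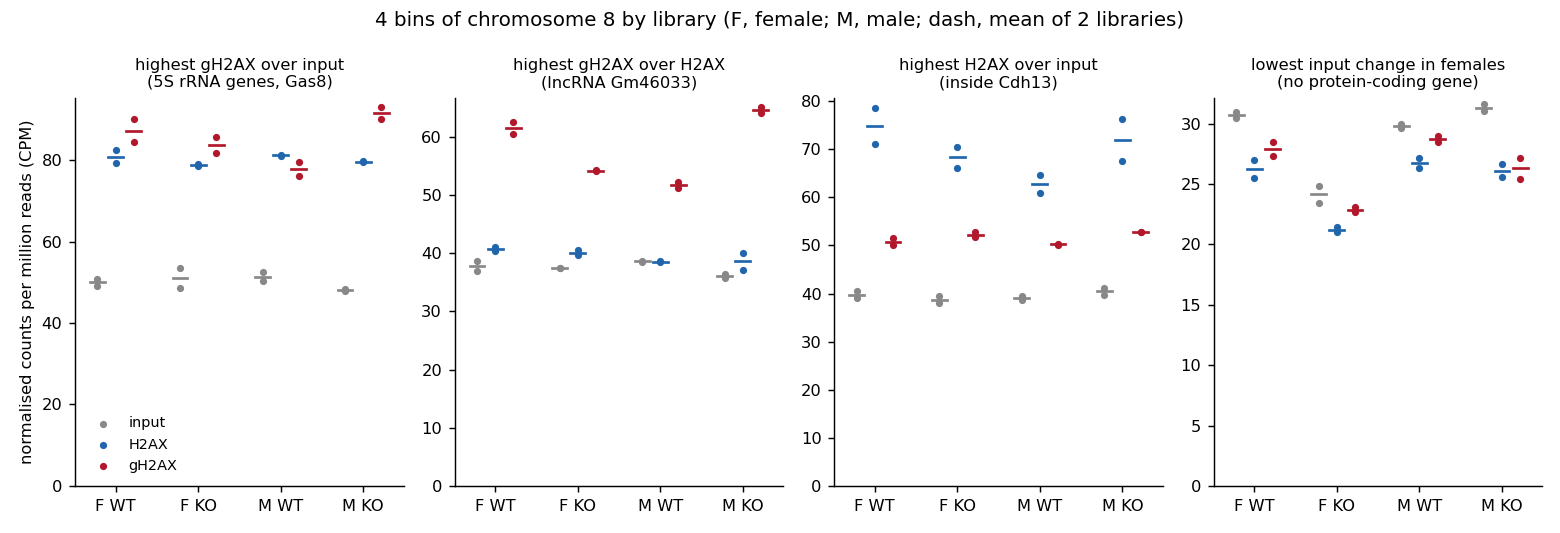
CPM in each library (y axis, 1 point per library, dashes for the mean of 2 libraries) for bins the results turn on, by antibody or input, sex and genotype along the x axis. In the 5S RNA bin all gH2AX and H2AX points lie above all input points, and in the gene-free bin that starts at 74000001 the female SIRT7-KO points are the lowest for input, H2AX and gH2AX.

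The level of both marks was higher with a larger number of protein-coding genes in a bin. The 742 bins with no such gene had a median gH2AX/input ratio of -0.08, the 257 with 1 gene 0.10, the 119 with 2 genes 0.19, the 91 with 3 or 4 genes 0.34, and the 37 with 5 or more 0.43. Bins of the other chromosomes, in the same classes, were at -0.09, 0.08, 0.16, 0.23 and 0.34. H2AX/input on chromosome 8 ran from -0.11 in bins with no gene to 0.44 in bins with 5 or more. Chromosome 8 held 0.829 protein-coding genes per bin and ranked 8th of the 19 autosomes by its median gH2AX/input ratio, 7th for H2AX/input and 11th for gH2AX/H2AX.

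Genes were then grouped by lists, each gene standing for the bin that holds most of its body. A value of a 100 kb bin belongs to the bin and not to the gene that names it. The counts stand beside 41.5% of all bins called higher for gH2AX/input and 45.2% lower. Bins that hold genes had larger shares called higher, 63.8% to 87.9% of the chromosome 8 bins across the classes with 1 or more genes, and the lists consist of such bins. In the genome maintenance list, 29 of 31 bins (32 genes) were called higher for gH2AX/input and 1 lower, with a median of 0.37. Gins2 stood at 0.66 and Asf1b, a histone chaperone for H3 and H4, at 0.58. Fanca, of the Fanconi anaemia core complex, stood at 0.53, and Ing1, a chromatin reader in histone deacetylase complexes, at 0.57. The exception called lower was Neil3 at -0.04, and Wrn, the helicase lost in Werner syndrome, was at -0.0001 and not called. In the stress and immediate-early list 12 of 13 bins were higher and 0 lower, with a median of 0.40. Osgin1 stood at 0.59, and the bin shared by the AP-1 subunit Jund and the stress cytokine Gdf15 at 0.54. Hmox1, haem oxygenase, stood at 0.45, and the bin of Junb at 0.40. Nqo1, a quinone reductase, was at -0.02 and not called.

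Of 24 bins in the fibroblast matrix and mesenchyme list, 20 were higher and 2 lower, with a median of 0.23. Comp, a cartilage and tendon matrix protein, stood at 0.58 and Crispld2 at 0.50, followed by Mmp15, a membrane-bound metalloproteinase, at 0.45. The basement membrane collagens Col4a1 and Col4a2 were at 0.33 and 0.26. Itgb1, the common beta integrin, was lower at -0.06, and Vegfc at -0.05. Markers of other cell types gave a like picture, with 19 of 21 bins higher and 2 lower and a median of 0.29. Jak3, a kinase of lymphocytes, and Cyba, an oxidase subunit of phagocytes, stood at 0.56, whereas the macrophage scavenger receptor gene Msr1 was at -0.23 and the cytokine gene Il15 at -0.07.

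In the long neuronal and late-replicating list 7 of 19 bins were higher and 8 lower, with a median of -0.02. Cacna1a, a calcium channel subunit, stood at 0.33 and Wwox at 0.31, while Glra3 stood at -0.34 and the listed Sgcz bin at -0.26. Of 7 bins with ADAM protease genes of testis, 0 were higher and 6 lower (median -0.09), from -0.14 for the bin of Adam26a and Adam26b to -0.01 for Adam39, the one not called. The 8 bins of Iroquois, Sall and related developmental regulators had a median of 0.12, with 7 higher, led by Nfix at 0.48 and Irx3 at 0.25, and Tox3 lower at -0.04. Zinc finger genes were higher in 13 and lower in 3 of 20 bins, from -0.09 for Zfp709 and -0.07 for Zfp958 to 0.52 for Zfp358 and 0.53 for Zfp276. Olfactory receptor genes were higher in 3 and lower in 1 of 4 bins, from -0.09 for Olfr371 to 0.29 for the bin of Olfr373 and Olfr374.

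**Figure D3:**
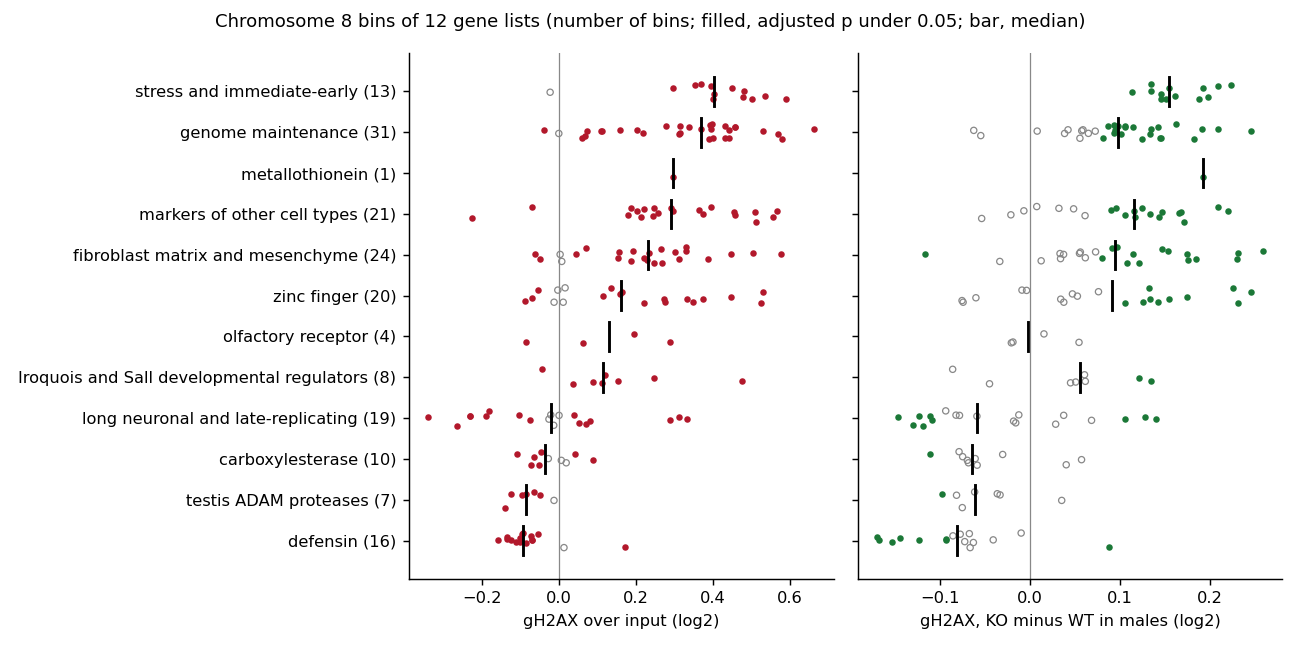
Log2 gH2AX/input (left) and log2 change of gH2AX in SIRT7-KO against WT males (right) of the 100 kb bins of each gene list, with 1 point per bin, filled where called, and a bar at the median of the list. The genome maintenance and stress lists have medians of 0.37 and 0.40 for gH2AX, and the testis ADAM list lies at or below 0 with a median of -0.09; the stress list has a median male change of 0.15.

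The ratio of gH2AX to H2AX separated stretches where the marks diverged. It was called higher in 463 and lower in 478 of 1246 bins, against 75.1% of all bins called (38.5% higher and 36.6% lower), and its median was -0.0018. Bins high in H2AX tended to be low in this ratio, with a Pearson correlation of -0.65 to H2AX/input (-0.63 over autosomal bins off chromosome 8). Both ratios contain the same H2AX libraries, so this is a description. The longest stretch with relatively more gH2AX was chr8:6000001-9200000 (32 bins, median 0.24), with Efnb2, an ephrin of vessels, and Arglu1, a splicing cofactor. The Efnb2 bin itself was above input for H2AX, at 0.15, and at only 0.04 for gH2AX/H2AX. In this stretch the gene-free bins that start at 6300001, 6800001 and 7400001 had H2AX/input ratios of -0.53, -0.52 and -0.50 and gH2AX/H2AX ratios of 0.31, 0.34 and 0.29. The next was chr8:49200001-51300000 (21 bins), in which the Tenm3 bin that starts at 49300001 was at -0.51 for H2AX/input, -0.15 for gH2AX/input and 0.36 for gH2AX/H2AX. The single bin that holds the 4 metallothionein genes Mt1 to Mt4, which encode metal-binding proteins, was at 0.30 for gH2AX/input, 0.05 for H2AX/input and 0.24 for gH2AX/H2AX.

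One gene-poor bin stood apart from its neighbours. chr8:15500001-15600000 holds no protein-coding gene and the annotated long non-coding RNA gene Gm46033 (15530401 to 15579574). The gH2AX levels were 54.1 and 54.3 CPM in female SIRT7-KO, 62.6 and 60.6 in female WT, 65.3 and 64.2 in male SIRT7-KO, and 52.3 and 51.3 in male WT libraries. H2AX ran from 37.2 to 41.0 CPM and input from 35.8 to 38.7 CPM. All 8 gH2AX libraries lay above all H2AX and input libraries, and the latter overlapped. The gH2AX/input ratio was 0.63 ± 0.02, the H2AX/input ratio 0.07 and the gH2AX/H2AX ratio 0.55 ± 0.02 (adjusted p = 1.524e-87), the 17th highest of 25703 bins. The neighbouring bins had gH2AX/input ratios of -0.04 and -0.03.

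The longest stretch with relatively less gH2AX was chr8:117200001-119400000 (22 bins, median -0.25), over Cdh13, Cmip and Plcg2. Cdh13 spans 1185 kb and fills 11 bins. Its H2AX/input ratio was between 0.20 and 0.81 (median 0.53), its gH2AX/input ratio between 0.08 and 0.38 (median 0.17), and gH2AX/H2AX was lower in 11 of 11 bins (median -0.35). All 11 lie in that stretch, which was picked for this ratio, so the count follows from the choice. The low ratio was not confined to the gene: bins centred at -490 to -90 kb from its start were at -0.34 to -0.18. The Cdh13 bin chr8:118800001-118900000 had the highest H2AX/input ratio on the chromosome, 0.81 ± 0.02 (adjusted p = 3.301e-118), ranked 20th in the genome, with gH2AX/input at 0.38 and gH2AX/H2AX at -0.43. H2AX levels there were 66.2 and 70.5 CPM in female SIRT7-KO, 71.1 and 78.7 in female WT, 67.6 and 76.3 in male SIRT7-KO, and 60.8 and 64.7 in male WT libraries. gH2AX ran from 50.1 to 52.9 CPM and input from 38.1 to 41.2 CPM. The 3 kinds of library did not overlap, with H2AX above gH2AX and gH2AX above input.

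**Figure D4:**
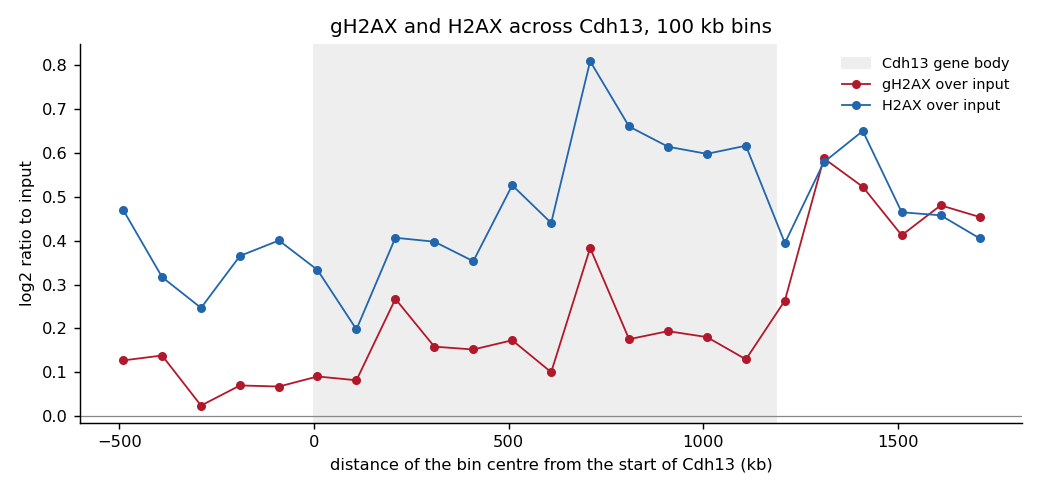
Log2 H2AX/input and gH2AX/input per 100 kb bin along Cdh13 and its flanks (x axis, distance from the gene's start in kb). Within the gene H2AX reaches 0.81 while gH2AX stays at or below 0.38, and gH2AX/H2AX is lower in 11 of 11 bins. It is also low upstream of the gene, at -0.34 to -0.18 in bins centred at -490 to -90 kb.

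Elsewhere the lowest gH2AX/H2AX ratio was -0.53, at chr8:55100001-55200000 (Gm51571, Gm51572), where H2AX/input was 0.72 and gH2AX/input 0.19. The bin chr8:55300001-55400000 (Gm51573, Gm51591, Gm51593) was close to it at -0.48. Csmd1, a long complement-control gene, had H2AX/input above gH2AX/input (medians 0.06 and -0.07 over 16 bins), with gH2AX/H2AX lower in 15. In Nrg1, the gene of the growth factor neuregulin, the ratio was higher in 7 of 9 bins.

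The defensin and carboxylesterase clusters were also low in gH2AX relative to H2AX, unlike the metallothionein bin above. Over all bins 36.6% were called lower for gH2AX/H2AX, and 44.54% to 52.75% across the chromosome 8 classes with 1 or more genes. Of the 7 testis ADAM bins 1 was higher and 2 were lower, and of the 4 olfactory receptor bins 0 were higher and 4 lower. The 53 defensin genes, antimicrobial peptides of gut and epithelia, lie in 16 bins, of which 14 were lower and 1 higher for gH2AX/input (median -0.09, from -0.16 for the bin of Defa22 and Defa30 to 0.17 for that of Defb37 and Defb40) and 10 were higher and 1 lower for H2AX/input (median 0.07). gH2AX/H2AX was lower in 13 of these bins and higher in 1 (median -0.15). The 19 carboxylesterase genes, enzymes of liver and gut that cleave esters, lie in 10 bins, all higher for H2AX/input (median 0.19), with gH2AX/H2AX lower in 9 (median -0.26). Their gH2AX/input ratios ran from -0.11 for the bin of Ces1e and Ces1f to 0.09 for Ces4a. Within the defensin area, between 19700001 and 20900000, 10 of 12 bins had an input level above 2 times the median of the chromosome 8 bins, with a median of 183.5 against 36.7 CPM and a highest level of 332 CPM. They held 4.19% of all chromosome 8 input reads. In these 10 bins H2AX/input was higher and gH2AX/H2AX lower in 10 of 10. How reads that match several copies were placed is not given in the sources used here, and its part in these ratios was not tested.

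As a share of autosomal reads, chromosome 8 outside the left-out stretch held 4.82% to 4.91% in the 8 gH2AX libraries, 4.94% to 4.98% in the H2AX libraries and 4.70% to 4.72% in input. The 3 ranges did not overlap. On the log2 scale gH2AX exceeded input by 0.05 and H2AX exceeded input by 0.07, and gH2AX was below H2AX by a difference of -0.02 (exact two-sided permutation tests over 8 against 8 libraries, each p = 0.0001554, the smallest p this design can give). Among the 19 autosomes chromosome 8 ranked 7th, 6th and 14th from the highest by these 3 differences. The highest were chromosome 17 at 0.18 for gH2AX/input and chromosome 11 at 0.17 for H2AX/input. Without the 0.1% of bins with the most input reads in the genome the chromosome 8 differences were 0.02, 0.02 and 0.0008. The last gave an exact permutation p = 0.6769. Chromosome 8 then ranked 7th, 8th and 9th. Chromosome 11 was then the highest for gH2AX/input at 0.08, with chromosome 17 at 0.04, and chromosome 7 the highest for H2AX/input at 0.12. Between SIRT7-KO and WT, the share differed by -0.0013 for gH2AX (exact permutation test, 4 against 4, p = 0.8571), with -0.02 in females and 0.02 in males. It differed by -0.0031 for H2AX (p = 0.3143, exact) and -0.0027 for input (p = 0.1714, exact).

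In males, the distribution of gH2AX along chromosome 8 differed between SIRT7-KO and WT: bins high in gH2AX were higher still in KO, and bins low in gH2AX were lower. The test called 620 of the 1246 bins, 328 higher and 292 lower in KO, with a median absolute change of 0.13 among them. In the genome 44.7% of bins were called, 22.4% as higher and 22.2% as lower, so chromosome 8 was near the background. In 616 of the 620 bins the KO and WT libraries did not overlap. These bins were called from the same libraries, so the count is no separate support, and the share over all bins is not given here. Of the 565 bins with gH2AX above input, 320 rose and 1 fell in KO males, and of the 533 bins below input 0 rose and 275 fell. The correlation of the male change with the gH2AX/input ratio was 0.87 across the 1246 bins. Both quantities contain the same male gH2AX libraries, so this is a description.

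Removing from each library its dependence on the gH2AX/input ratio, by a smooth curve fitted over the genome, brought the correlation to 0.01. A value this small follows from the fit itself. The removal left 17 called bins, 8 higher and 9 lower, against 1.67% of all bins. The count was 282 with the change in input subtracted (19.6% of all bins) and 431 with the change in H2AX subtracted (30.1%), the latter an alternative chosen after seeing the data. Leaving out the second male WT gH2AX library gave 379 bins and leaving out the second male KO library 402. With 2 libraries a group, the contrast between high and low bins in a library and the genotype cannot be told apart.

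**Figure D5:**
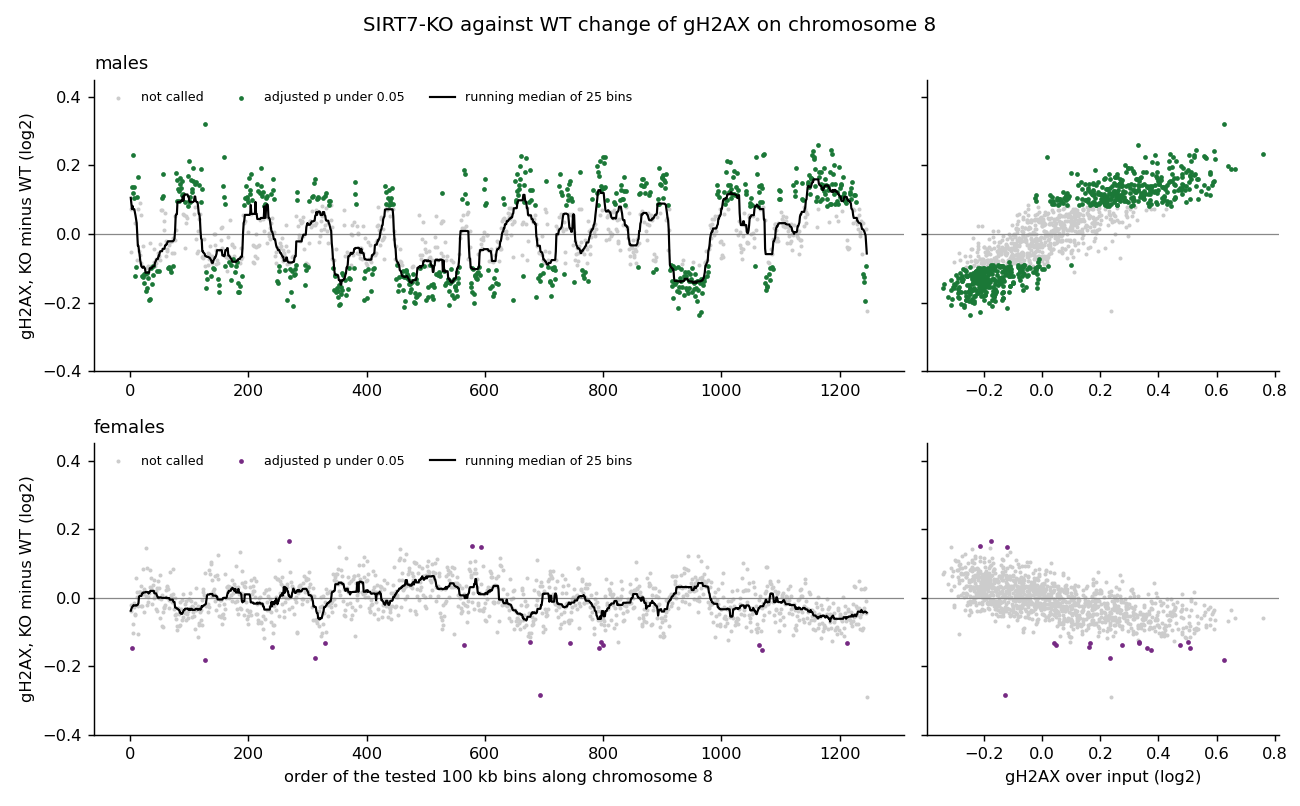
Log2 change of gH2AX in SIRT7-KO against WT (y axis) of the 1246 tested chromosome 8 bins in males (top) and females (bottom), in chromosome order with a running median (left) and against the log2 gH2AX/input ratio of the bin (right), with called bins in colour. On the right, the male points slope upwards (Pearson 0.87) and the female points downwards (-0.62).

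The longest block that rose in KO males was chr8:121100001-122900000 (18 bins, median 0.14), with the zinc finger gene Zfp469, Banp and the transcriptional corepressor gene Cbfa2t3. It was followed by chr8:119300001-120800000 (15 bins, median 0.16), and by 3 blocks of 11 bins: chr8:123000001-124100000, chr8:69800001-70900000 and chr8:10800001-11900000, the last over Col4a1 and Col4a2. The longest that fell were chr8:96000001-98100000 (21 bins, median -0.14), chr8:50700001-52300000 (16 bins), chr8:98300001-99900000 (16 bins, with Cdh8), chr8:62300001-63600000 (13 bins, with Spock3) and chr8:37900001-39000000 (11 bins, median -0.16, which begins in Sgcz and runs past the gene). In the window that starts at 120000001, 45 of 50 bins rose and 0 fell. The window that starts at 95000001 had 37 bins that fell, and that at 50000001 had 32.

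The largest male change was in the Gm46033 bin chr8:15500001-15600000, whose levels are given above. Its KO and WT libraries did not overlap in either sex, and the change was 0.32 ± 0.03 in males (adjusted p = 4.813e-18). With the dependence on enrichment removed it was 0.13 (adjusted p = 0.006774). The bin of Foxc2 and Foxl1, forkhead regulators of mesenchyme, chr8:121100001-121200000, rose by 0.26 ± 0.04 in males (adjusted p = 7.393e-11), with 53.7 and 47.6 CPM in KO against 41.7 and 42.4 in WT males. It stood at 0.14 (adjusted p = 0.01145) with that dependence removed. The Fanca bin chr8:123200001-123300000 rose by 0.25 and the Gse1 bin chr8:120200001-120300000 by 0.24. The 5S RNA bin rose by 0.23 ± 0.03 (adjusted p = 1.782e-10), and was at 0.01 (adjusted p = 0.877) with the dependence removed. The largest falls were -0.24 at chr8:101000001-101100000 and -0.23 at chr8:101200001-101300000, a bin with 27.4 and 29.2 CPM in KO against 32.5 and 34.3 in WT males. The bins at 97300001 and 51000001 each changed by -0.21.

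The gene lists followed the landscape in males. Over all bins 22.4% rose and 22.2% fell, and in the chromosome 8 classes with 1 or more genes 37.4% to 73.0% of bins rose. Of 31 genome maintenance bins 21 rose and 0 fell (median 0.10). Fanca at 0.25 and Rnaseh2a, the catalytic subunit of ribonuclease H2, at 0.21 were the highest, followed by Gins2 at 0.19 and Asf1b at 0.18. Neil3 at -0.06 and Lig4, the ligase of end joining, at -0.05 were the lowest and were not called. All 13 stress and immediate-early bins rose (median 0.15), among them Ier2 at 0.22, the bin of Mt1 and Mt2 at 0.19 and Hmox1 at 0.15. Nqo1 rose by 0.11 although its bin was not above input for gH2AX, and was at 0.12 and still called with the enrichment dependence removed. Among fibroblast genes 14 of 24 bins rose and 1 fell, with the bin of Foxc2 at 0.26, Crispld2 and Bcar1, an adhesion scaffold protein, at 0.23 and Itgb1 at -0.12. Among markers of other cell types 14 of 21 rose and 0 fell, with Jak3 at 0.22. The long neuronal and late-replicating list had 3 bins that rose and 6 that fell out of 19. Of the bins within Sgcz 9 of 10 fell (median -0.17), and of those within Galntl6 8 of 11. Of 16 defensin bins 1 rose and 7 fell. With the enrichment dependence removed, the male medians were -0.01 for genome maintenance, 0.0066 for stress genes and 0.02 for fibroblast genes.

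In females few bins changed. The test called 18 of 1246 bins, 3 higher and 15 lower in KO, against 1.01% of all bins in the genome (0.416% higher and 0.595% lower), and 201 bins had an unadjusted p under 0.05. The KO and WT libraries did not overlap in any of the 18, which were called from these same libraries, so this is no separate support. The count was 23 without TMM scaling, 8 with DESeq2, 5 with the input change subtracted (0.389% of all bins), 1 with the H2AX change subtracted (0.237%) and 3 with the enrichment dependence removed (0.257%), and 4 to 16 when 1 library was left out, with 7 and 6 without the first or the second female KO library and 4 without the first female WT library. The largest change, at a gene-free bin that starts at 74000001, is described with the input below. The Gm46033 bin changed by -0.18 ± 0.03 (adjusted p = 7.278e-05), and did not pass with the input change subtracted (-0.17, adjusted p = 0.0705), with the H2AX change subtracted (-0.16, adjusted p = 0.1005) or with the enrichment dependence removed (-0.12, adjusted p = 0.0669).

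Other bins that fell in KO females included those of Insr, the insulin receptor gene (-0.15), Zfp703 (-0.14), Nek1, a kinase of cilia and DNA repair (-0.14, a bin inside the gene other than the listed one), Klf2 with Eps15l1 (-0.13) and Zfp827 (-0.13). Also among them were Rfx1 with Il27ra and Palm3 (-0.15), Cacna1a (-0.13), Nfix with Lyl1 (-0.14), Aars with Ddx19b (-0.14), Zfp1 with Znrf1 and Ldhd (-0.15) and Map3k21 with Kcnk1 (-0.13). A further bin called lower lay in the window chr8:35000001-40000000. The 3 that rose were a Tll1 bin (0.15) and the bins that start at 29800001 (0.17) and 62600001 (0.15). Across all 1246 bins the correlation of the female change with the gH2AX/input ratio was -0.62, the sign opposite to males. It was -0.0017 with the enrichment dependence removed, which follows from the fit itself. Of the 565 bins above input for gH2AX 14 fell and 0 rose in KO females.

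The test of the difference itself, the female minus the male KO effect, called 555 of 1246 bins, 237 higher and 318 lower, against 40.5% of all bins (20.1% higher and 20.4% lower). Of the 12 bins called in both sexes, 11 changed in opposite directions. With the enrichment dependence removed 8 bins were called (0.883% of all bins), with the input change subtracted 330 (23.1%) and with the H2AX change subtracted 391 (28.4%). The largest difference was in the Gm46033 bin, at -0.50 ± 0.05 (adjusted p = 3.239e-22), and it was called with the enrichment dependence removed (adjusted p = 1.309e-05). At chr8:34100001-34200000, which holds Mboat4, the enzyme that acylates ghrelin, with Saraf and Leprotl1, gH2AX was 39.0 and 38.8 CPM in KO against 44.3 and 43.5 in WT females, and 44.1 and 43.1 in KO against 39.6 and 38.1 in WT males. The libraries did not overlap within either sex. The changes were -0.17 (adjusted p = 0.0008075) in females and 0.16 (adjusted p = 8.14e-05) in males, and their difference was -0.34.

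The Sgcz bin chr8:38300001-38400000 went the other way. It held 30.4 and 31.3 CPM in KO against 27.7 and 27.9 in WT females, and 25.1 and 28.1 in KO against 31.0 in both WT male libraries. The female change of 0.15 did not pass (adjusted p = 0.071), the male change was -0.21, and the difference of 0.35 was called. The longest blocks of called differences included chr8:121100001-122500000 (14 bins, median -0.21) and chr8:37900001-38900000 (10 bins, median 0.22). Of the 31 genome maintenance bins 20 had a lower effect in females than in males and 0 a higher one, and of the 13 stress bins 12 and 0.

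H2AX and input hardly differed between genotypes outside the left-out stretch. H2AX was called in 1 bin in females, a lower one, against 0.152% of all bins (0.0311% higher and 0.121% lower). It was called in 2 bins in males, both higher, against 0.191% (0.105% higher and 0.0856% lower). Input was called in 1 bin in females, a lower one, against 0.183% (0.0506% higher and 0.132% lower), and in 2 bins in males, both higher, against 0.222% (0.0973% higher and 0.124% lower). With the input change subtracted H2AX was called in 0 bins in either sex, against 0% of all bins in females and 0.0311% in males. The H2AX count in females was 2 without the first female WT library, and so was the input count. The H2AX count in males was 16 without the first male KO library and 1 without the second, or without the first male WT library, and the input count in males was 0 without the second male WT library and 1 without the second male KO library.

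The female bin was the same for input and H2AX: chr8:74000001-74100000, which holds no annotated protein-coding gene. Input was 24.9 and 23.4 CPM in KO against 31.0 and 30.4 in WT females, and 31.6 and 31.1 in KO against 29.6 and 30.0 in WT males. H2AX was 21.0 and 21.5 against 27.0 and 25.5 CPM in females, and gH2AX 23.1 and 22.7 against 28.4 and 27.3. The female KO libraries lay below the WT libraries in all 3 kinds of library. The changes were -0.35 ± 0.04 in input (adjusted p = 2.154e-12), -0.31 in H2AX (adjusted p = 4.042e-07) and -0.28 in gH2AX (adjusted p = 7.446e-07). With the input change subtracted the gH2AX change was 0.06 (adjusted p = 0.682). The bins on either side were at -0.06 and -0.04 in female input and did not pass.

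In males the bin chr8:85100001-85200000, with Cks1brt and Zfp791, was higher in KO in all 3 kinds of library. Input was 35.5 and 37.2 CPM in KO against 32.5 and 32.0 in WT, a change of 0.18 ± 0.04 (adjusted p = 0.00102). H2AX changed by 0.17 (adjusted p = 0.00972) and gH2AX by 0.23 (adjusted p = 4.979e-07). The H2AX call was lost without the first male KO or the second male WT library. The input call was lost without the second male KO library (0.14, adjusted p = 0.20) and without the second male WT library (0.17, adjusted p = 0.118). A bin of Phkb, a subunit of phosphorylase kinase, was also higher in male KO input (0.15, adjusted p = 0.00556). The call of the Phkb bin was likewise lost without the second male KO library, where the only bin called was another one. It was also lost without the second male WT library. The second H2AX call in males was the Cdh13 bin that starts at 118800001, at 0.19 ± 0.04 (adjusted p = 0.00175), which DESeq2 did not call (adjusted p = 0.862) and which was lost without the second male KO or the first male WT library.

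The first left-out bin, which starts at 47500001 (Trappc11, Rwdd4a), differed between KO and WT females by -0.38 in input, -0.46 in H2AX and -0.46 in gH2AX, and the last, at 49100001 (Tenm3), by -0.31, -0.16 and -0.22. The kept bin before the stretch, which starts at 47400001 (Stox2, Trappc11), differed by 0.02, -0.02 and 0.01, and the kept bin after it, at 49200001 (Tenm3), by -0.01, 0.12 and 0.09. These values are given without a test.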

How the data were processed

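ChIP-seq and input reads of the 24 libraries were analysed as raw read counts per 100 kb bin, which the authors deposited as 1 table. Per the submitters' processing notes, the build was mm10 and the tools named are Bowtie2 2.2.9, SAMtools 0.1.19, Trimmomatic 0.36, FastQC 0.11.3, MACS2 2.2.7.1 and deepTools 2.4.2; their settings, and the handling of duplicates and of reads that match several places, are not given in the sources used here. A further 24 columns matched no labelled sample and were not used.

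Counts were fitted with edgeR 4.0.16 in R 4.3.3 (quasi-likelihood F tests, two-sided, TMM scaling and library sizes from autosomal bins, filterByExpr) over 25703 bins of chromosomes 1 to 19 and X (25702 for gH2AX alone), with Benjamini-Hochberg adjustment over all of them and a threshold of 0.05. Ratios between antibodies came from all 24 libraries, averaged over sex and genotype, and KO against WT from the 8 libraries of an antibody. The SE is the absolute log2 value over the square root of F. The enrichment dependence was a lowess curve (span 0.3) of each library on the gH2AX/input ratio, removed as an offset. Shares of reads were compared by exact permutation tests (scipy 1.17.1). Alternatives were no TMM, no filter, DESeq2 1.42.0, a replicate block, the input or H2AX change subtracted, the enrichment dependence removed and each library left out. The models were tested on simulated data. Same-numbered libraries did not deviate together (correlations of -0.0423 to 0.0624 over 66 pairs of groups), so the numbers were not used as pairs.

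In each comparison the 5 longest runs of called bins per direction and the 5 highest and 5 lowest bins could be named, as well as listed genes; for each list the examples are the highest and lowest genes by gH2AX/input (up to 2 each, fewer where genes share a bin), and further names, those for the male change included, were chosen after their values were seen. The bins, lists and tests were chosen with earlier results of these data known. Gene positions and promoters are from RefSeq on GRCm38.p6, the assembly behind mm10.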

Additional observations from a re-analysis of the deposited data

Results flagged for a closer look

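The KO effect on gH2AX differed between the sexes, by the test of the difference itself (edgeR, adjusted over all bins), in 555 chromosome 8 bins, where 40.5% of all bins in the genome did. With the enrichment dependence removed 8 bins were called, 1 higher and 7 lower (0.883% of all bins). With 2 libraries a group, the contrast between high and low bins in a library and the genotype cannot be told apart. Values are the female minus the male KO effect on the log2 scale. The lowest were -0.50 in the Gm46033 bin that starts at 15500001, -0.35 in the Foxc2 bin at 121100001, -0.34 in the Saraf bin at 34100001, -0.33 in the Gse1 bin at 120200001 and -0.33 in the Fanca bin at 123200001. In all 5 the fitted female KO effect was below 0, from -0.18 to -0.09, and the male effect above 0, from 0.16 to 0.32. The highest were 0.35 in the Sgcz bin at 38300001, 0.33 at 101200001, 0.30 at 39400001, 0.30 at 52600001 and 0.30 at 52800001, the first inside Sgcz and the others in bins with no protein-coding gene. In these 5 the female effect was 0.10 to 0.15 and the male effect -0.23 to -0.18. In the 9 sets of 4 to 10 libraries examined, no chromosome 8 share stood apart from the others of its set.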

How the results depend on the processing

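The counts of bins called for gH2AX/input, H2AX/input and gH2AX/H2AX stayed within 1.5 times under every alternative run, and ranged over 1076 to 1100, 1120 to 1134 and 914 to 937 when 1 library was left out. For gH2AX in females the 18 calls became 5 with the input change subtracted, 1 with the H2AX change subtracted, 3 with the enrichment dependence removed, 8 with DESeq2 and 4 to 16 with 1 library left out. For gH2AX in males the 620 became 282 (input), 17 (enrichment) and 379 to 462, and the 555 differences between the sexes became 330, 8 and 412 to 519. For H2AX, the counts in females and males were 0 and 0 with the input change subtracted, DESeq2 called 1 in males, and with 1 library left out they were 1 to 2 and 1 to 16. Input counts were 1 to 2 in females and 0 to 2 in males. With the replicate number as a block, gH2AX was called in 26 bins in females and 638 in males, and H2AX in 2 and 4; every other count stayed within 1.5 times. The H2AX subtraction was chosen after seeing the data.

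The chromosome share of gH2AX against H2AX was 0.0008 without the 0.1% of bins with the most input reads (exact permutation p = 0.6769) and -0.003 as a median over bins (p = 0.2786, exact). Without those top bins the KO and WT shares differed by -0.0051 in H2AX and -0.0043 in input, each with the smallest exact p of 4 against 4, 0.02857. Signs reversed in the bin at 74000001, to 0.0623 (gH2AX, input subtracted), 0.023 (gH2AX, H2AX subtracted) and 0.0393 (H2AX, input subtracted), and in the bin at 85100001, to -0.0082 (H2AX in males, input subtracted). Of the other values of 62 named bins, 290 kept direction and call and 30 lost the call, and with a library left out 629 kept and 19 lost it. The cause of these shifts was not tested.

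With 2 libraries a group, changes near the spread of about 2% between libraries are not resolved, and no unirradiated cells tie any level to the X-rays. A bin averages 100 kb, so peaks within it are not seen. Ratios are relative to the autosomal total and miss a change in the total amount of a mark.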
